A study of Mus musculus with 9 samples.

Results

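Imprinted genes are transcribed from the allele of a single parent, and 34 of them that lie outside the Dlk1-Meg3 locus were followed in mouse embryonic stem cells. They were chosen by name, from known imprinted domains, with earlier results of these data known. The arrays carried 64 probes for them, and 29 of the 34 entered the tests because a probe of theirs was well above background throughout a group (on 3 of 3 arrays), out of 19913 genes tested in all. Usp29, Zim1, Kcnq1 and Nap1l5 were well above background on no array, and Asb4 gave 5 readings above background in 18, so these members have no level here.

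Imprints are DNA methylation marks that are set in the germ line at the control region of a domain and kept by the embryo through the wave of demethylation that follows fertilisation. A marked domain often holds a growth-promoting gene read from the paternal allele, growth-restraining genes read from the maternal allele, and a long noncoding RNA that silences neighbours in cis. In cultured embryonic stem cells these marks are known to drift, and sister subclones can differ in their imprinted expression. The arrays report the summed RNA of both alleles, so they give levels and not allelic use.

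The cells carried Xpc, a DNA damage recognition protein that is also known as a partner of Oct3/4, as a gene flanked by loxP sites, and the design asked how expression changes when Xpc is lost. Floxed cells (Xpc f/f without Tx) had no deletion, induced cells (Xpc f/f with Tx, an agent the labels do not spell out) were taken 4 days after deletion with the Cre-loxP system, and null cells were an Xpc-null line grown from a subclone. Total RNA of each group went onto 3 arrays, 9 in all, and the labels name no other allele or agent. The null cells stand for a subclone, no group received Tx without a floxed Xpc gene, and nothing says whether the arrays of a group came from separate cultures, so p-values may measure technical spread alone.

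All levels below are log2 of the processed spot signal minus that of the array's 75th percentile, so 0 is a signal equal to that percentile, and differences are on the log2 scale. The probe for Xpc, whose place relative to the deleted part was not analysed here, read 0.59, 0.55 and 0.16 in floxed cells, -1.11, -0.68 and -1.05 in induced cells and -0.85, -1.53 and -1.37 in null cells. It was lower on every array of the cells labelled as deleted, by 1.38 ± 0.20 (SE) in induced cells (limma adjusted p over all genes = 0.224) and by 1.68 ± 0.20 in null cells (adjusted p = 0.00584). The 10 markers of embryonic stem cells were all tested, and their summed signal relative to the 75th percentile spanned 888 to 982 in floxed, 820 to 1007 in induced and 778 to 909 in null cells. That sum weighs Dppa5a most (mean 8.95 in floxed cells). Between null and induced cells 1 of the 10 rose, Utf1 by 0.59 ± 0.10 (limma adjusted p = 0.0322), and 0 fell. Of all genes 0.658% rose and 1.54% fell in that comparison. Between 47.4% and 57.9% of spots were well above background on each array. The arrays were spread over 3 slides. Floxed arrays 1 and 2 had slide 1 to themselves, floxed array 3 shared slide 2 with null array 3, and the other null arrays shared slide 3 with the induced ones. Floxed array 3 stood apart from the other floxed arrays. On the first principal component, with 47.3% of the variance, it scored 24.2 against -32.6 and -33.9 for floxed arrays 1 and 2, while the null arrays scored 29.1 to 36.2. Without it, 1 of the 10 stem cell markers rose and 5 fell between null and floxed cells, against 0 and 0 with it. Of all genes 13.1% rose and 11.7% fell without it, against 0.738% and 1.11% with it. The median difference of the 10 markers was -0.34 in place of -0.11. Counts of members called are given with and without floxed array 3. Leaving it out removes the only slide that null and floxed cells share, so slide and group then cannot be told apart in that comparison.

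In the null subclone 4 members fell and 0 rose against floxed cells, where 0.738% of all genes rose. Igf2, the fetal growth factor, Osbpl5, a lipid transfer protein of the oxysterol-binding family, Ndn, the necdin gene, and Grb10, an adaptor that dampens insulin and Igf receptor signalling, were the members that fell. These are 4 of 29 members (13.8%), where the same limma test at an adjusted p of 0.05 called 1.85% of all genes, and 1.11% as lower (147 genes higher and 221 lower, or 78 and 216 with median scaling). Against induced cells 3 of the 29 (10.3%) fell, Igf2, Osbpl5 and Grb10, where 2.2% of all genes were called, 0.658% as higher and 1.54% as lower. These null arrays are the same in both comparisons. In bulk RNA, fewer cells with a transcript and less of it per cell cannot be told apart.

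The members had no common direction. The median log2 difference of the 29 between null and floxed cells was 0.03, with 15 above 0 and 14 below, and the median of all genes tested was 0.01. The 16 tested members known for paternal expression had a median of 0.05, 2 of them falling (Igf2 and Ndn). The 12 known for maternal expression had a median of 0.04, also with 2 falling (Osbpl5 and Grb10). Which allele was expressed in these cells was not measured. Values of the separate members ran from -1.40 for Igf2 to 0.97 for Mest.

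**Figure D1:**
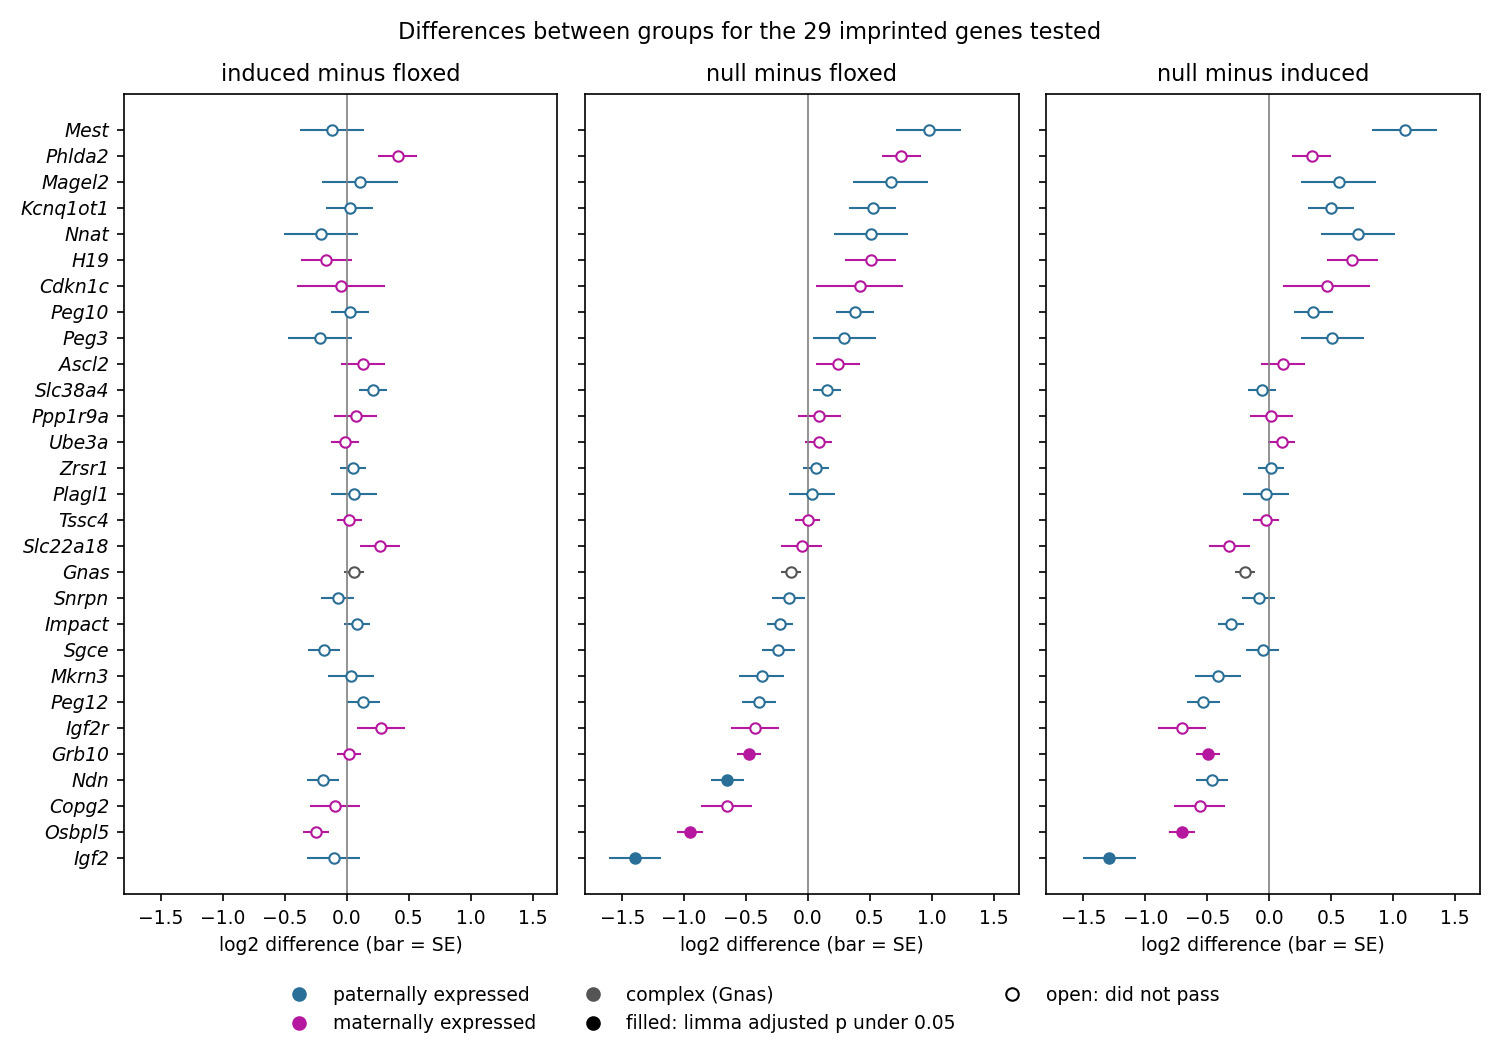
Log2 differences between groups for the 29 imprinted genes tested, induced minus floxed (left), null minus floxed (middle) and null minus induced (right). Bars are the SE of the limma fit, and genes are ordered by the middle panel. Colour gives the parent whose allele each gene is known to be expressed from, and points are filled where the adjusted p was under 0.05. The left panel holds no filled point, the middle one 4 and the right one 3, all below 0.

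Markers of other cell types moved with the null group and are given beside the 4 falls. The summed relative signal of 12 fibroblast markers spanned 30.1 to 36.8 in floxed, 20.3 to 27.8 in induced and 8.87 to 10.73 in null cells. Of the 7 tested, 6 fell against floxed and against induced cells, where 1.11% and 1.54% of all genes fell. Thy1 was higher instead, by 1.37 and 1.34, and did not pass (limma adjusted p = 0.104 and 0.103). Lum, Pdgfra, Pdgfrb and Postn were above background on no array. Such sums weigh the brightest marker most, here Tagln (mean 4.69 in floxed cells), and Krt18 (5.85) in the trophectoderm list. The sum of 10 trophectoderm markers spanned 79.2 to 117 in floxed, 68.6 to 94.2 in induced and 37.1 to 40.3 in null cells. Of the 7 tested, 5 fell against floxed and 4 against induced cells, and Elf5 and Tpbpa were above background on no array. Eomes was higher in null cells, by 0.45 and 0.71, and did not pass (limma adjusted p = 0.404 and 0.202). Of 10 endoderm markers 2 were tested and neither passed, 7 were above background on no array, Sox17, Gata6 and Foxa2 among them, and the sum spanned 7.03 to 11.8 in floxed, 10.5 to 12.6 in induced and 11.0 to 12.2 in null cells. The sum of 10 neural markers spanned 34.4 to 37.2 in floxed, 31.9 to 35.6 in induced and 44.8 to 50.6 in null cells. Of the 9 tested, 1 rose against floxed and 2 against induced cells, where 0.738% and 0.658% of all genes rose. The part of these cell types in the values of Igf2, Osbpl5, Ndn and Grb10 was not tested.

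The start regions of the 4 members that fell are shown for their CG content. Imprints are written at CG dinucleotides of control regions, and these windows were picked as transcript starts. Whether any of them is a control region was not analysed here. For each gene the 250 bases before the RefSeq transcript start with the most CG are given from the GRCm38.p6 tables, 5′ to 3′ on the gene's strand, with each CG in capitals. The array data say nothing on methylation of these bases.
Igf2 (chr7:142658805-142659054, minus strand, 22 CG): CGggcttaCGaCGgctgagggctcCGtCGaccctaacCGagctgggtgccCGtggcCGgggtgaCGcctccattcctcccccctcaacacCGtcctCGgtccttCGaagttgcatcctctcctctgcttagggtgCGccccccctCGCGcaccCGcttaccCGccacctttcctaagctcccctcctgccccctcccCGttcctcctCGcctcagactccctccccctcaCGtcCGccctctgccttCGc
Osbpl5 (chr7:143740361-143740610, minus strand, 18 CG): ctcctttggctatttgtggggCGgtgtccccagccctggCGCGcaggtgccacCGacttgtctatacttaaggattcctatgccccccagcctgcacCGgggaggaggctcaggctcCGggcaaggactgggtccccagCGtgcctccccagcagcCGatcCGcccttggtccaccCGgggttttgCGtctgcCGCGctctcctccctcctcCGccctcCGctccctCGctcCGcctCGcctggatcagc
Ndn (chr7:62348027-62348276, plus strand, 5 CG): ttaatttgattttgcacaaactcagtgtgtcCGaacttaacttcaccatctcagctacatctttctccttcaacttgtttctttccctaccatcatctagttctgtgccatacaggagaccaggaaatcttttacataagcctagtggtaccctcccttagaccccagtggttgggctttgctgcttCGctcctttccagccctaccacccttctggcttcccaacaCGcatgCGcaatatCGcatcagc
Grb10 (chr11:12037421-12037670, minus strand, 40 CG): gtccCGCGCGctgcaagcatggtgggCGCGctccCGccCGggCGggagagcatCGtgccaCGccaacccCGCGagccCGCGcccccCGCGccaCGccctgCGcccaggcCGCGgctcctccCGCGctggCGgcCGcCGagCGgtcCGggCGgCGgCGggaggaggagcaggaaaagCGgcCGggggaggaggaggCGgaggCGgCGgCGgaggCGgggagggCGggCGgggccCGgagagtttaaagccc
These starts differ widely in CG content. At least as many CG as at Grb10 were held by 1.31% of the 32851 windows of all genes, as many as at Igf2 by 14.8%, as at Osbpl5 by 21.7% and as at Ndn by 55.6%, the median window holding 6. The hexamer TGCCGC, the core of the site that the imprint-keeping factor Zfp57 is known to bind when methylated, was searched on both strands and lay in the Osbpl5 window but in none of the other 3 shown. It was found in 7 of the 46 windows of the 28 members with a window (15.2%) and in 8.68% of all windows. Overlapping Mest windows, starting at 30737800 and 30737803, both count among the 7. The hexamer itself holds a CG, and the median window of members held 10 CG against 6 over all windows. The part of CG content in these shares was not tested. A match to the hexamer is a description of these letters, not a bound site.

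The growth factor axis is the part of imprinting best known for control of embryo size. Igf2, read from the paternal allele and the ligand of the axis (probe at chr7:149839661-149839720 in mm9, minus strand), gave -2.58, -2.64 and -2.87 in floxed cells, -2.56, -3.04 and -2.82 in induced cells and -4.01, -4.56 and -3.72 in null cells. Its null arrays lay below all others with no overlap, and none of them was well above background, while all 6 floxed and induced arrays were. Each null array was then set to no less than its lowest signal above background. On that scale Igf2 RNA was 2.26-fold lower in null than in floxed cells and 2.09-fold lower than in induced cells. These folds are no strict bound, since a Kcnq1 probe read -3.30 on null array 2 without being well above background. The fitted log2 differences of Igf2 from floxed and induced cells were -1.40 ± 0.21 (limma adjusted p = 0.0192) and -1.29 ± 0.21 (adjusted p = 0.0262). The call against floxed cells was lost without floxed array 1, floxed array 2 or null array 1, and that against induced cells without any 1 of the induced arrays or without null array 1 or 2. With a background correction by normexp or with the mean signals of the series matrix the difference from floxed cells shrank to -0.44, and neither passed (adjusted p = 0.0588 and 0.113).

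H19, the maternally expressed noncoding RNA that shares an enhancer and a control region with Igf2, gave -0.68, -0.78 and -0.22 in floxed cells, -0.27, -0.89 and -1.0 in induced cells and -0.03, 0.01 and -0.14 in null cells. The null arrays were above all others, yet the differences of 0.51 ± 0.21 from floxed (limma adjusted p = 0.193) and 0.67 ± 0.21 from induced cells (adjusted p = 0.111) did not pass, and with slide as a fixed block the former was 0.09 ± 0.32. Its 6 kept probes all had a null-minus-floxed difference above 0, between 0.14 and 0.51. Those at 0.29 ± 0.32, 0.28 ± 0.34 and 0.14 ± 0.27 were each above background on only 1 floxed array, so their sign carries little weight. A probe is a stretch of the transcript printed on the glass. The brightest of the 6 (mm9, chr7:149761492-149761551, minus strand) is shown, the oligonucleotide behind the H19 levels given above.
H19 probe: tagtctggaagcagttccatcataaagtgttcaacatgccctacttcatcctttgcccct
Igf2 and H19 thus stood on opposite sides of the floxed level in the subclone, although only the value of Igf2 passed.

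Igf2r, the maternally expressed receptor that clears Igf2 from the cell surface, gave 2.36, 2.55 and 1.71 in floxed, 2.50, 2.48 and 2.46 in induced and 1.87, 1.68 and 1.79 in null cells. Floxed array 3 read like the null arrays and not like its own group. The differences of null cells were -0.43 ± 0.19 from floxed (limma adjusted p = 0.223) and -0.70 ± 0.19 from induced cells (adjusted p = 0.0906). Within slide 3, where null arrays 1 and 2 meet the 3 induced arrays, the latter was -0.71 ± 0.10 with an adjusted p of 0.0112. Grb10, with maternal expression in most tissues (probe at chr11:11833165-11833224, minus strand), gave -0.09, -0.04 and -0.18 in floxed, 0.02, -0.15 and -0.13 in induced and -0.52, -0.69 and -0.53 in null cells. Its null arrays were below the other 6 without overlap, at 71.9% of the floxed and 71.1% of the induced signal. The log2 differences of -0.48 ± 0.10 (limma adjusted p = 0.0460) and -0.49 ± 0.10 (adjusted p = 0.0432) lay just past the threshold. Leaving out any array but floxed array 3 ended both calls.

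In the Kcnq1ot1 domain, a noncoding RNA read from the paternal allele silences a row of maternally expressed genes, several of them restraints on placental growth. Osbpl5, at one edge of the domain (probe at chr7:150874667-150874726, minus strand), gave 0.85, 0.99 and 0.74 in floxed cells, 0.71, 0.60 and 0.53 in induced cells and -0.05, -0.21 and -0.01 in null cells. The 3 groups stepped down in that order with no overlap between any pair of them. Null cells held 51.7% of the floxed signal, a log2 difference of -0.95 ± 0.11 (limma adjusted p = 0.00429), and 61.4% of the induced signal, a difference of -0.70 ± 0.11 (adjusted p = 0.0188). The fall from floxed to induced cells, -0.25 ± 0.11, did not pass (adjusted p = 0.829). The call against floxed cells held on leaving out each of the 9 arrays, while that against induced cells was lost without any 1 of the induced arrays or without null array 1 or 2. Within slide 3 the difference from induced cells was -0.74 ± 0.11 (adjusted p = 0.0115).

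Phlda2, a restraint on placental growth in the same domain, had its highest values where Osbpl5 had its lowest. It gave 0.36, 0.54 and 0.99 in floxed, 1.08, 0.92 and 1.12 in induced and 1.35, 1.49 and 1.30 in null cells, with every null array above every other one. The difference of null from floxed cells, 0.75 ± 0.16, just missed the threshold (limma adjusted p = 0.0536) and reached an adjusted p of 0.00101 without floxed array 3. With slide as a fixed block it was 0.31 ± 0.16 (limma adjusted p = 0.591). That of induced from floxed cells, 0.41 ± 0.16, was the largest rise of a member after 4 days and did not pass (adjusted p = 0.751). Cdkn1c, the cyclin-dependent kinase inhibitor p57, rested on the outlying array in the same way: it read 2.40 and 2.27 on floxed arrays 1 and 2 but 3.84 on floxed array 3, the highest of all 9, against 3.08 to 3.43 in null cells. The null-minus-floxed difference of Cdkn1c was 0.42 ± 0.35 with that array (adjusted p = 0.503) and 0.92 ± 0.12 without it (adjusted p = 0.00176). With slide as a fixed block, which sets null array 3 against floxed array 3, it was -0.75 ± 0.16 and did not pass (limma adjusted p = 0.165). Kcnq1ot1 itself differed by 0.52 ± 0.19 (adjusted p = 0.154), Ascl2, a transcription factor of trophoblast progenitors, by 0.24, Slc22a18, a membrane transporter, by -0.05 and Tssc4 by -0.00. The 7 tested members of the domain had a median difference of 0.24, with 1 call.

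**Figure D2:**
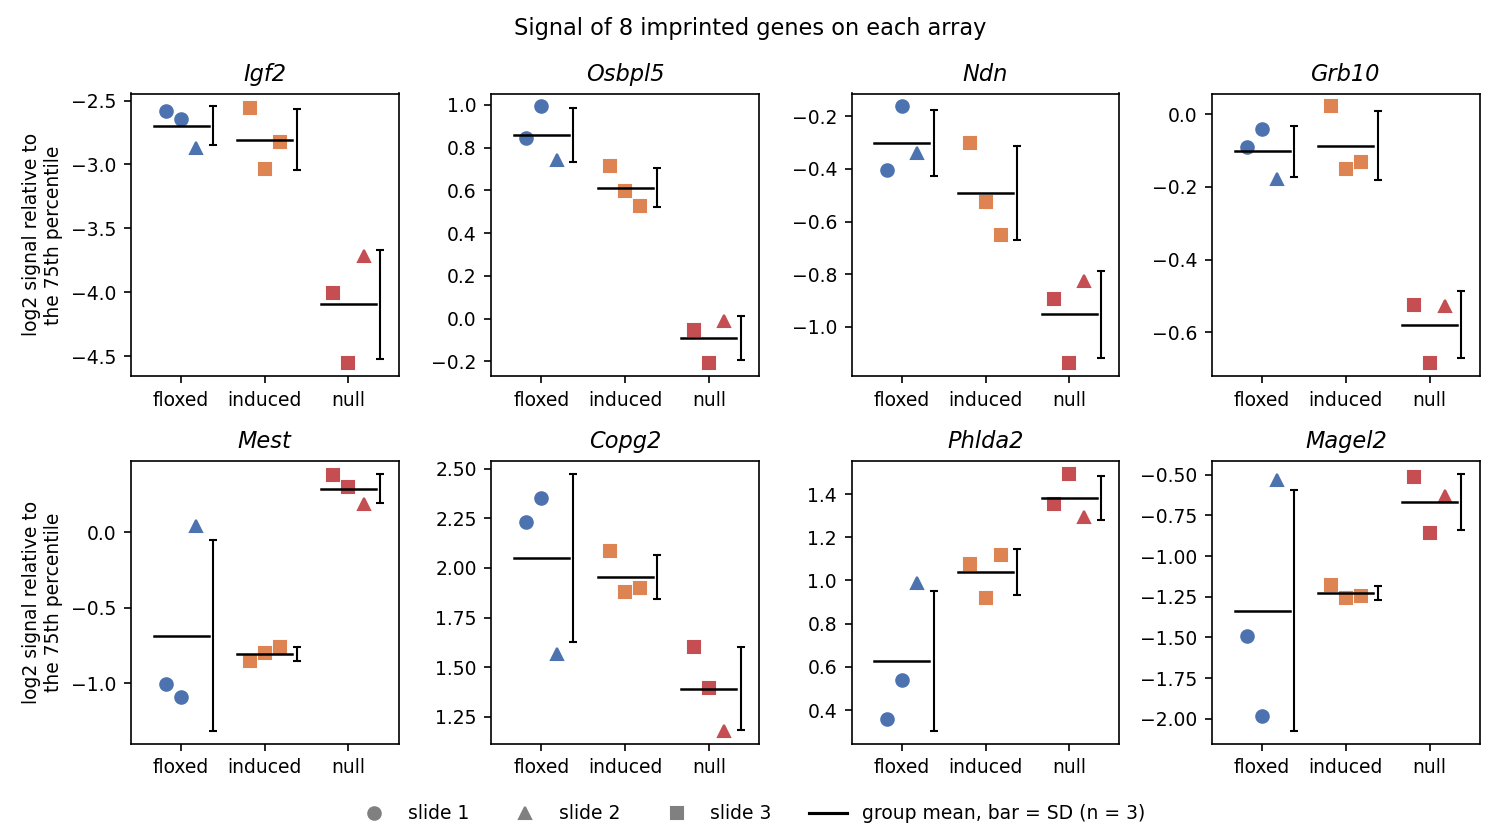
Signal of 8 imprinted genes on each of the 9 arrays, as log2 relative to the array's 75th percentile (vertical axis, scaled for each gene), for the floxed, induced and null groups; circles, triangles and squares are slides 1, 2 and 3, the line is the group mean and the bar the SD (n = 3). In the upper row (Igf2, Osbpl5, Ndn, Grb10) floxed array 3, the floxed triangle, lies with its group, whereas in the lower row it lies nearer to the null arrays, as for Mest, at 0.04 against -1.0 and -1.09.

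The Snrpn-Ube3a domain, the mouse counterpart of the Prader-Willi and Angelman region, had 6 members tested. Ndn, a paternally expressed gene of the MAGE family that restrains growth in neurons (probe at chr7:69493847-69493906, plus strand), gave -0.40, -0.16 and -0.34 in floxed, -0.30, -0.53 and -0.65 in induced and -0.89, -1.14 and -0.82 in null cells. The null arrays lay below the other 6, at 63.7% of the floxed signal, with a log2 difference of -0.65 ± 0.13 (limma adjusted p = 0.0455). Against induced cells the difference of -0.46 ± 0.13 missed the threshold (adjusted p = 0.0969), and the call against floxed cells was lost on leaving out any array but floxed array 3. Magel2, its MAGE family neighbour, read -1.49, -1.98 and -0.53 in floxed, -1.18, -1.26 and -1.25 in induced and -0.51, -0.86 and -0.63 in null cells. The null-minus-floxed difference of Magel2 was 0.67 ± 0.30 (adjusted p = 0.232) with floxed array 3 and 1.07 ± 0.16 (adjusted p = 0.0029) without it, and null array 3 differed from floxed array 3, on the same slide, by -0.10. The rest of the domain had null-minus-floxed differences of -0.38 for Mkrn3, a ring finger protein, -0.40 for Peg12, -0.16 for Snrpn, a splicing protein, and 0.09 for the ubiquitin ligase Ube3a, and none passed.

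Mest and Copg2 are read from opposite strands of chromosome 6 and their transcripts converge. Mest, a paternally expressed hydrolase-like protein, gave -1.0, -1.09 and 0.04 in floxed, -0.86, -0.80 and -0.76 in induced and 0.38, 0.30 and 0.19 in null cells. The null arrays stood above all others, and the difference from floxed cells was the largest rise among the members at 0.97 ± 0.26, without passing (limma adjusted p = 0.0895). It was 1.34 ± 0.09 without floxed array 3 (adjusted p = 0.000134) and 0.14 ± 0.13 with slide as a fixed block (adjusted p = 0.775). Against induced cells Mest differed by 1.09 ± 0.26 (adjusted p = 0.0684), and within slide 3 by 1.15 ± 0.09 (adjusted p = 0.00297). Its second kept probe gave 1.01 and 1.13.

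Copg2, a coat protein of transport vesicles read from the maternal allele, gave 2.23, 2.35 and 1.57 in floxed, 2.08, 1.88 and 1.90 in induced and 1.60, 1.40 and 1.18 in null cells. Null array 1 and floxed array 3 overlapped, and the differences of -0.66 ± 0.20 (limma adjusted p = 0.116) and -0.56 ± 0.20 (adjusted p = 0.146) did not pass, although the former reached an adjusted p of 0.00305 without floxed array 3. With slide as a fixed block it was -0.39 ± 0.17 (limma adjusted p = 0.499). Both kept probes of Copg2 lay below 0, and both kept probes of Mest above it. The probes of the pair lie on opposite strands, and none covers bases of another.

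**Figure D3:**
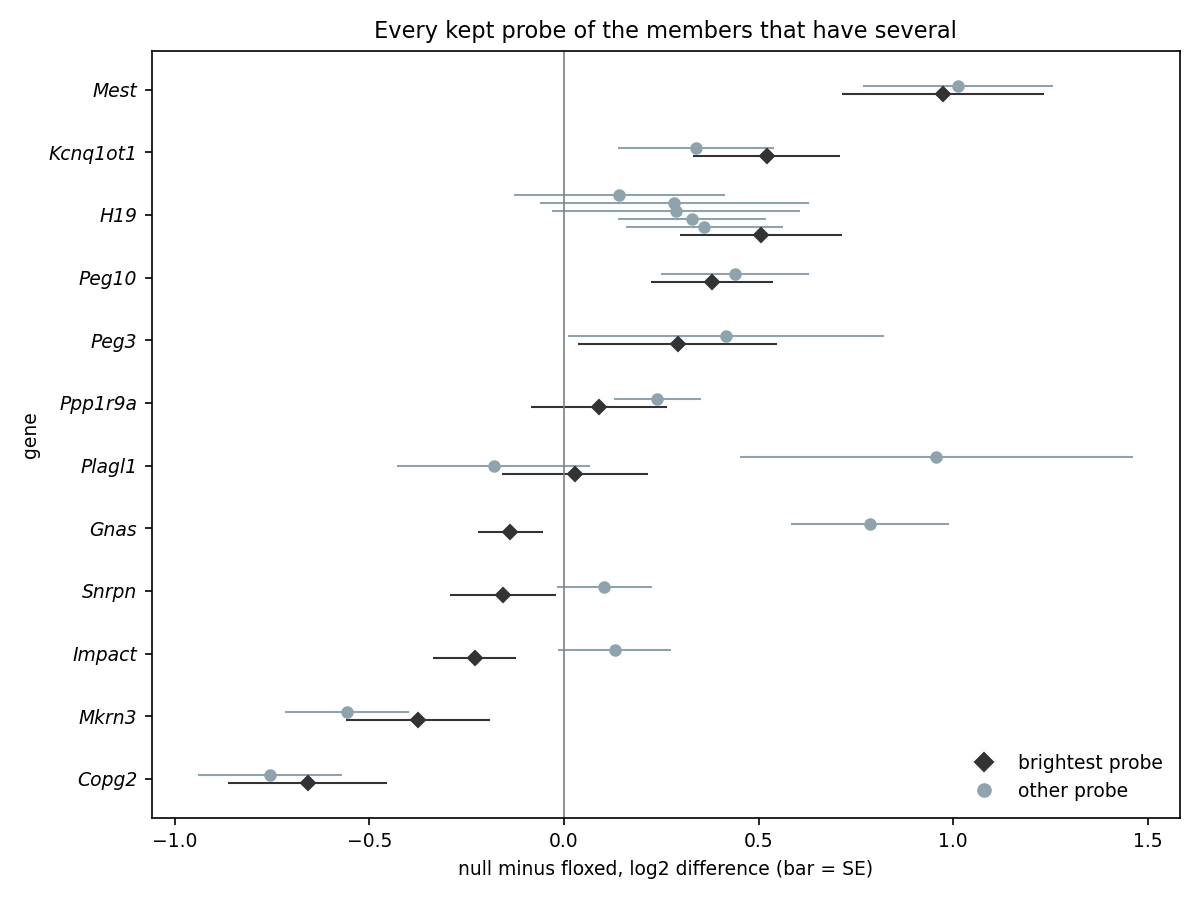
Null-minus-floxed log2 difference (horizontal axis) of every kept probe for the 12 imprinted genes with more than 1 kept probe, with bars for the SE; diamonds are the brightest probe, which stands for the gene in the tests, and circles the others. The probes share a direction in 8 of the 12 genes, among them H19, Mest and Copg2, and lie on both sides of 0 for Gnas.

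Probes of a gene can read different transcripts, and 12 members had more than 1 kept probe. They shared a direction in 8 of the 12 between null and floxed cells, and in 7 of the 12 in each of the other comparisons. At Gnas, a complex locus with transcripts of maternal, paternal and biparental origin, the brightest probe, for the stimulatory G protein subunit, differed by -0.14 ± 0.08 between null and floxed cells (limma adjusted p = 0.333). A probe far upstream of it (mm9, chr2:174122337-174122396, plus strand) read -0.31, -0.48 and 0.17 in floxed, -0.61, -0.19 and 0.03 in induced and 0.47, 0.66 and 0.62 in null cells. This upstream probe was higher in the null arrays than in all others, by 0.79 ± 0.20 over floxed cells, and did not pass over all kept probes (adjusted p = 0.0931). Plagl1, a zinc finger transcription factor, Snrpn and Impact also had probes on both sides of 0, and none of these passed.

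Of the remaining members, none passed in the fit of the 3 group means to all 9 arrays. Nnat, a small membrane protein of neurons, was dim and uneven, at -2.74, -2.79 and -3.26 in floxed, -2.80, -3.0 and -3.62 in induced and -3.05, -2.09 and -2.12 in null cells, and differed by 0.72 ± 0.30 between null and induced cells (limma adjusted p = 0.189). Peg3, a zinc finger protein, read -1.29, -1.33 and -0.38 in floxed, -1.26, -1.21 and -1.19 in induced and -0.82, -0.34 and -0.97 in null cells, so floxed array 3 again sat with the null arrays. With slide as a fixed block Peg3 differed by 0.64 ± 0.14 between null and induced cells (limma adjusted p = 0.0260). A second, dimmer kept probe of Peg3 differed by only 0.03 ± 0.41 between these groups in the fit without a block. Peg10, a retrotransposon-derived gene needed in the placenta, differed between null and floxed cells by 0.38, and Sgce, which shares its promoter region, by -0.24. The other single loci had null-minus-floxed differences of -0.23 for Impact, 0.03 for Plagl1, 0.07 for Zrsr1, and 0.15 for Slc38a4, an amino acid transporter, and the last tested gene of the Peg10 domain, Ppp1r9a, one of 0.09.

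At 4 days of deletion no member had moved past the threshold. In that comparison 0 of 29 members passed in limma's test, where it called 0.00502% of all genes, and 2 members had an unadjusted p under 0.05 (6.9% of the members, against 5.91% of all genes). These were Phlda2, higher, and Osbpl5, lower. After Phlda2 the largest rises were 0.28 ± 0.19 for Igf2r and 0.27 ± 0.16 for Slc22a18. Slc22a18 read -0.11, -0.13 and -0.69 in floxed, -0.06, -0.10 and 0.05 in induced and -0.52, -0.35 and -0.21 in null cells, so floxed array 3 was the lowest of the 9. The largest falls after Osbpl5 were -0.22 ± 0.26 for Peg3 and -0.21 ± 0.30 for Nnat. The second kept probe of Peg3 went the other way, by 0.39 ± 0.41. The groups did not overlap for 5 members (17.2%), where that held for 12.9% of all genes.

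How many members were called rested on floxed array 3. Its signal lay nearer to the mean of the null arrays than to the mean of floxed arrays 1 and 2 for 19 of 29 members (65.5%) and for 63.3% of all genes. The 4 members that fell were among the 10 for which it did not. This follows in part from the test, since a floxed array near the null mean narrows the difference and widens the spread. Without this array 16 of the 29 members passed between null and floxed cells (55.2%), where 24.8% of all genes did. In that setting null and floxed cells met on no slide, so slide and group cannot be told apart. Ascl2, Cdkn1c, H19, Magel2, Mest, Peg10, Peg3 and Phlda2 were then higher in null cells (13.1% of all genes), and Copg2, Grb10, Igf2, Igf2r, Impact, Mkrn3, Ndn and Osbpl5 lower (11.7% of all genes). Between null and induced cells, where the array enters only through the pooled spread, 13 members passed without it (44.8%, with 18.1% of all genes), and between induced and floxed cells 0 did (0.728% of all genes).

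Array 3 of the floxed cells shares its slide with null array 3, and the slides overlap the groups only in part. Within slide 3 alone, null arrays 1 and 2 against the 3 induced arrays, 9 members passed (31.0%), where 12.4% of all genes did. They were Cdkn1c, Magel2, Mest and Peg3 as higher (5.27% of all genes) and Grb10, Igf2, Igf2r, Osbpl5 and Peg12 as lower (7.11% of all genes). With slide as a fixed block, which leaves null array 3 against floxed array 3 as the only contrast of null and floxed cells within a slide, 0 members passed in that comparison (0.251% of all genes). The values of the 4 members that had fallen were then -0.85 for Igf2, -0.75 for Osbpl5, -0.49 for Ndn and -0.35 for Grb10, all below 0. For 10 of the 29 members the sign of that comparison turned, among them Cdkn1c at -0.75, Peg3 at -0.59 and Igf2r at 0.08. Under the same block 11 members passed between null and induced cells (16.3% of all genes). Between induced and floxed cells, which met on no slide and were linked only through the null arrays, 2 passed (0.874% of all genes), Cdkn1c at -1.30 ± 0.19 and Mest at -1.0 ± 0.15.

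**Figure D4:**
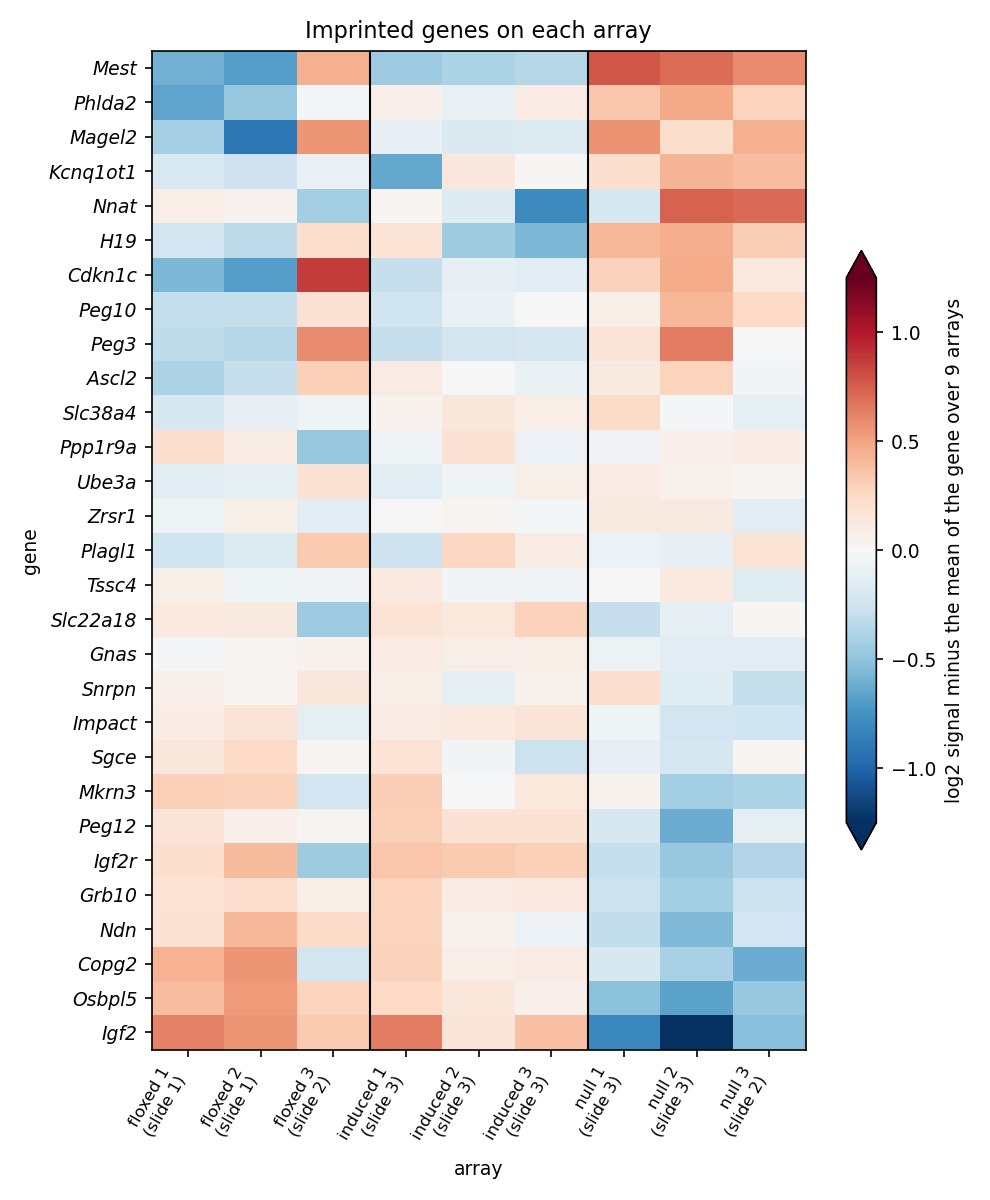
Signal of the 29 imprinted genes tested (rows, ordered by their null-minus-floxed difference) on each of the 9 arrays (columns, with their slides), as log2 minus the gene's mean over the 9 arrays; red is above and blue below that mean. Floxed array 3 differs in colour from floxed arrays 1 and 2 in many rows, such as Mest, Magel2, Cdkn1c and Peg3, and has the colour of its own group for Igf2, Osbpl5, Ndn and Grb10.

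Among groups that did not overlap, 11 of the 29 members (37.9%) were separated between null and floxed cells, where 23.4% of all genes were, and 18 (62.1%) between null and induced cells, where 37.2% were. Higher in every null than in every floxed array were H19, Mest, Phlda2 and Kcnq1ot1 (12% of all genes), and lower were Igf2, Grb10, Ndn, Sgce, Osbpl5, Gnas and Peg12 (11.4% of all genes). Of the 18, 8 were higher (19% of all genes) and 10 lower in null cells (18.3% of all genes).

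Other genes of the imprinting machinery were read from 2 lists of known genes. Of 24 regulators of imprints, all tested, 1 fell in null against floxed and against induced cells and 0 rose. Of all genes 1.11% and 1.54% fell in these comparisons, and 0.738% and 0.658% rose. The regulator that fell was Dppa3, the maternal factor also called Stella that shields imprints from demethylation. Dppa3 gave 2.63, 2.70 and 2.47 in floxed, 2.64, 2.10 and 2.16 in induced and 1.13, 1.02 and 1.34 in null cells, with the null arrays far below all others. Its differences were -1.44 ± 0.16 from floxed (limma adjusted p = 0.00419) and -1.13 ± 0.16 from induced cells (adjusted p = 0.0134). The latter call was lost without null array 1 or 2 (adjusted p = 0.0572 and 0.0625) and with no filter on dim probes (0.0668), and the former with slide as a fixed block (-1.14, adjusted p = 0.192). The median of the 24 regulators between null and floxed cells was 0.21, with 21 above 0. For all genes the median was 0.01, with 10313 of 19913 above 0. Without floxed array 3, 8 regulators rose and 1 fell, where 13.1% of all genes rose and 11.7% fell.

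Of 48 other imprinted genes, 31 were tested and 0 passed limma's adjusted threshold between null and floxed cells, between null and induced cells or between induced and floxed cells. Of all genes 1.85%, 2.2% and 0.00502% passed in these comparisons. At an unadjusted p under 0.05 there were 11, 14 and 1 of the 31 (35.5%, 45.2% and 3.23%), against 22.8%, 23.8% and 5.91% of all genes. Their median between null and floxed cells was 0.06, with 16 above 0 and 15 below. Without floxed array 3, 8 rose and 5 fell in that comparison, where 13.1% of all genes rose and 11.7% fell.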

How the data were processed

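RNA of 9 samples was hybridised with Cy3 to 1-colour Agilent arrays, 1 array each. The deposited scanner files hold spot intensity, from scans read with Agilent Feature Extraction 10.7.3.1 (per the submitters' processing notes and the file headers). The processed signal is background-subtracted and not scaled between arrays, per the file headers. The deposited series matrix holds the mean signal of the spots, on a linear intensity scale and with no centring (100% of values within 0.6% of it, column medians 94.5 to 140). Its columns all matched a sample.

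Control and outlier spots were left out, which gave 55681 probes. The 75th percentile of the signal was 346 to 471 and the median local background 29 to 46.5. The arrays of slide 2 had the lowest background, 29 on floxed array 3 and 29.5 on null array 3, against 39 to 46.5 on the others. Of the probes, 27229 were named through a RefSeq accession in the GRCm38.p6 table and the rest kept the file's name. Positions of probes are in mm9, as the files give them. Each value is log2 of the processed signal less that of the 75th percentile on its array. Probes well above background throughout some group, on 3 of 3 arrays, were kept (27536 probes, with 2 left out as outliers on an array), and the brightest kept probe stood for its gene. For a gene not well above background in its lower group, each array of that group was set to no less than the lowest signal above background.

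Means of the 3 groups were fitted with limma 3.58.1 in R 4.3.3 (lmFit and eBayes, two-sided), with Benjamini-Hochberg adjustment over 19913 genes and a threshold of 0.05, for 3 comparisons. Tested on simulated data with 200 changed genes, the fit recovered 67% of changes of 1 and 98% of changes of 2 (log2) between null and floxed cells, with 4.07% false calls, and 80% and 98% between null and induced cells, with 5.82% false calls. The simulated noise was independent between arrays, with no slide effect and no outlying array, so these rates do not carry over to the real arrays. Members and lists were chosen with earlier results of these data known. Values on all arrays are given for members that passed in any comparison and for the 3 largest rises and falls in each, and for other probes that stand for another transcript; of the other imprinted genes and regulators those that passed are named. Cdkn1c was singled out after its values were seen. Alternatives were other background corrections and scalings, filters, probe rules, slide blocks, a replicate block and leaving out each array. Exons of mm9 and protein sequences were not analysed here.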

Additional observations from a re-analysis of the deposited data

How the results depend on the processing

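With 3 arrays a group, and Igf2 and Nnat close to background, small differences could not be shown. Osbpl5 passed between null and floxed cells in 20 of 21 alternatives (-1.01 to -0.75), Igf2 in 11 of 20, Ndn in 6 of 21 and Grb10 in 4 of 21. Between null and induced cells Osbpl5 passed in 15 of 22, Igf2 in 13 of 21 and Grb10 in 8 of 22. None of these turned its sign. Differences short of the threshold in the report passed for Mest in 1 of 21 (null against floxed) and 8 of 22 (null against induced), for Phlda2 in 5 of 21, Copg2 in 1 of 21 and Magel2 in 1 of 21 (null against floxed), and for Igf2r in 5 of 22 and H19 in 1 of 22 (null against induced). The number of members called between null and floxed cells, 4 in the report, was 2 with every kept probe, 2 with median scaling, 1 with no filter, 1 with only the groups compared, 0 with slide as a fixed block, 1 with slide as a random block (correlation 0.512) and 1 to 16 on leaving out an array. Between null and induced cells, 3 in the report, it was 0 with no filter, 8 with only the groups compared, 11 with the fixed block, 7 with the random block, 9 within slide 3 and 0 to 13 on leaving out an array. Between induced and floxed cells, 0 in the report, it was 2 with the fixed block.

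The number of all genes called between induced and floxed cells, 1 in the report, was 3 with median scaling, 0 with no filter, normexp, quantile normalization, the series matrix, the random block or probes above background on all arrays, 174 with the fixed block and 0 to 145 on leaving out an array. Between null and floxed cells, 368 in the report, it was 76 with no filter, 570 with normexp, 82 with only the groups compared, 50 with the fixed block, 103 with the random block and 79 to 4943 on leaving out an array. Between null and induced cells, 438 in the report, it was 63 with no filter, 2780 with only the groups compared, 3249 with the fixed block, 1812 with the random block, 2465 within slide 3 and 61 to 3610 on leaving out an array. Without the filter 35017 genes were tested in place of 19913. For the other settings the cause was not tested.

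Differences that had not passed changed sign in some settings. With the fixed block 10 of 29 members did so between null and floxed cells, Magel2 (-0.10), Cdkn1c (-0.75), Peg3 (-0.59), Ascl2 (-0.34), Slc22a18 (0.48), Igf2r (0.08), Plagl1, Slc38a4, Ube3a and Zrsr1, and 15 did between induced and floxed and 4 between null and induced cells. With the random block 5, 7 and 1 did in these comparisons, Cdkn1c (-0.065) and Peg3 (-0.070) between null and floxed cells among them. Between induced and floxed cells Phlda2 was -0.076 with the fixed block, Nnat 0.56 with the fixed and 0.11 with the random block and -0.38 to 0.031 on leaving out an array, and Peg3 0.085 with the mean of kept probes and -0.38 to 0.091 on leaving out an array.

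With the replicate number as a block, 166 genes and 2 members were called between null and floxed cells, 188 genes and 1 member between null and induced cells, and 1 gene and 0 members between induced and floxed cells. The numbers did not pair the arrays, since deviations of arrays with the same number correlated between -0.106 and 0.0873 over 9 pairs, so the block result only shows how the count moves.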
